A study of Mus musculus with 8 samples.

Results

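The ligands and receptors of the TNF superfamily were followed in mouse embryonic fibroblasts (MEFs) over 72 h after c-Src was switched on. Members were the probes, other than controls, whose gene name in the scanner files is Tnfrsf or Tnfsf with a number and at most a letter and a further number (Tnfrsf) or a letter (Tnfsf). They came to 40 probes for 30 genes among 55681 probes. Of these, 29 probes (20 genes) read receptors and 11 probes (10 genes) read ligands. A probe is described where it was well above background on both arrays of at least 1 time, which held for 23 member probes (19 genes) and for 28610 probes of the whole array. The cells were Csk-/- MEFs transfected with the vector pBKT2-c-Src, and 1 µg/ml doxycycline (Dox) was used to switch on c-Src. Total RNA was taken after 0, 6, 24 and 72 h of c-Src expression, with 2 one-colour Cy3 arrays per time and 8 in all. All groups, 0 h included, lacked Csk, a kinase that holds Src family members inactive. The comparisons with 0 h ask what changed after c-Src was induced and when, and those at 6, 24 and 72 h share the same 0 h arrays. No sample had Dox without the vector, so c-Src, Dox and time in culture cannot be told apart.

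TNF superfamily ligands are mostly trimeric type II membrane proteins, some of which are shed, and they gather their receptors into clusters on the target cell. Receptors with a death domain recruit adaptors such as TRADD or FADD and can lead to caspase activation or NF-κB signalling. Receptors without it bind TRAF adaptors directly and signal to NF-κB and MAP kinases, and decoy receptors bind ligand but carry no functional death domain. Fibroblasts are known to respond to TNF and TWEAK, whereas several other members are best known from lymphocytes.

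Values are given as scaled signal, in fluorescence units, which is the processed signal divided by its array's 75th percentile. It is then multiplied by 379, the median of those percentiles. Differences are on the log2 scale with their standard error (SE), and "passed the test" means an adjusted p under 0.05 in a limma fit over all 28610 probes. Whether the duplicate arrays stem from separate cultures is not said in the labels. The p-values therefore measure only how far these arrays differ, and that spread may be technical. Since all arrays lay on 1 slide with the times in different rows, time and slide row cannot be told apart, and in bulk RNA fewer cells of a type and less RNA per cell cannot be told apart. The Src probe read 149 and 166 at 0 h, 4180 and 4270 at 6 h, 3720 and 3760 at 24 h, and 3090 and 3080 at 72 h. Csk was well above background on no array; where its probe lies relative to the deleted part is not given in the sources used here. Of 8 fibroblast markers, 7 were above background on all arrays and Thy1 on none. None of the 7 passed the test at 6 h, 1 rose and 5 fell at 24 h, and 1 rose and 6 fell at 72 h. At 72 h Pdgfrb stood at 0.325 of its 0 h signal (adjusted p = 0.000149) and Col3a1 at 0.402 (8.8e-05), while Vim rose 1.57-fold (0.000601). Their summed signal, carried mostly by Fn1, Col1a1 and Vim, was 250000 to 253000 at 0 h, 248000 to 253000 at 6 h, 216000 to 227000 at 24 h and 216000 to 218000 at 72 h. The part of these changes in the results on the members was not tested.

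The promoter windows of the members with the largest changes are shown first, together with the only described window that held a match to a motif searched. RefSeq windows (build GRCm38.p6, 250 bases before to 50 after the start of the gene, 300 in all) were found for 15 of the 19 described genes, 17 windows in all, and not for Tnfrsf10b, Tnfrsf22, Tnfsf12 and Tnfsf9. They were searched on both strands for the AP-1 site TGANTCA and for the NF-κB consensus, and matches are in capitals. An AP-1 match was found in 1 of the 17 windows, against 7.81% of all 32851 windows, and an NF-κB match in 1, against 4.51%. Both lay in the second of the windows of Tnfrsf9 (4-1BB), at chr4:150927749-150928048 on the plus strand, where the AP-1 match began 15 bases before the start and 2 overlapping NF-κB matches began 43 and 42 bases before it. The other windows printed are those of Tnfrsf12a (chr17:23677400-23677699, minus strand), Tnfrsf23 (chr7:143685826-143686125, minus strand), Tnfsf15 (chr4:63745010-63745309, minus strand) and the first of the windows of Tnfrsf25 (chr4:152115684-152115983, plus strand), and these are in lower case throughout.
Tnfrsf9, second window: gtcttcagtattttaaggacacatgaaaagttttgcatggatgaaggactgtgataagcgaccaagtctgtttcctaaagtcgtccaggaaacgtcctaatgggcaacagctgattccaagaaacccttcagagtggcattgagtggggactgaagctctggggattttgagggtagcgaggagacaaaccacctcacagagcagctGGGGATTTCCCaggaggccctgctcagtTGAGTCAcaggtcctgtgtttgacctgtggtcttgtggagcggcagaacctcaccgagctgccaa
Tnfrsf12a: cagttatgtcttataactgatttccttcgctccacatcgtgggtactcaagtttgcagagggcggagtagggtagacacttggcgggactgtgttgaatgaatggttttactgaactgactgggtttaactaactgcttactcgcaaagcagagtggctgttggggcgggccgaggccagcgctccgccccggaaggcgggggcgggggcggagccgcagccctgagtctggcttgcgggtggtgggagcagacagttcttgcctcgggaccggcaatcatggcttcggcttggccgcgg
Tnfrsf23: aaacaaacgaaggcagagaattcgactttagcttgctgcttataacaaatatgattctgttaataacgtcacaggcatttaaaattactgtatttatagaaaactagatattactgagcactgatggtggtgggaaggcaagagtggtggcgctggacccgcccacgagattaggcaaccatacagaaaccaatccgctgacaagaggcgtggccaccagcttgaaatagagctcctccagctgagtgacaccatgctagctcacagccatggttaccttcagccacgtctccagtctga
Tnfsf15: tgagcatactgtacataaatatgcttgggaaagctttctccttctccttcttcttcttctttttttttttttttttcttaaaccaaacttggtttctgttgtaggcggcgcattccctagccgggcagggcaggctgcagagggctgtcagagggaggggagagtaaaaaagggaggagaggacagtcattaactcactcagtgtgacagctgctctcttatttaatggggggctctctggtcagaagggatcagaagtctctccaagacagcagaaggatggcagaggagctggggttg
Tnfrsf25, first window: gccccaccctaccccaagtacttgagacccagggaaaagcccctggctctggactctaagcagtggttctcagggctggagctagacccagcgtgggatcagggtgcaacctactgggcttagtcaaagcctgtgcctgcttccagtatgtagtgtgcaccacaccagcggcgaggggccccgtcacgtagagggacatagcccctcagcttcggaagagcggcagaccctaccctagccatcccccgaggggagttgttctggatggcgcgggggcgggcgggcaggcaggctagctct

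Among members above background at 0 h, the receptor Tnfrsf12a had risen most at 6 h. The decoy receptor Tnfrsf23 had joined it at 24 h, while the ligand Tnfsf15 had fallen. At 72 h Tnfsf15, its receptor Tnfrsf25 and Tnfrsf13c were the members furthest below 0 h. The ligand Tnfsf11 also passed the test as higher at 6 and 24 h. It was not above background at 0 h, so its rise is only a bound and is not ranked with the others. Of the 23 described probes, 9 rose and 1 fell at 6 h, where 14.8% of all probes passed the test in either direction (8.99% higher and 5.78% lower). At 24 h, 6 rose and 4 fell, where the share over all probes was 38.8% (20.4% higher and 18.4% lower). At 72 h, 7 rose and 7 fell, where it was 50% (26.4% higher and 23.6% lower). Of the calls over all probes, 60.9%, 52.5% and 52.8% were higher at 6, 24 and 72 h. With median scaling, which moved the median of all probes by over 0.1 at 24 and 72 h, these shares were 77.9%, 75.2% and 74.7%, and the described probes gave 7 rises and 1 fall, 7 and 3, and 7 and 3. The median difference of the described probes was 0.22 at 6 h, 0.00 at 24 h and -0.12 at 72 h, against 0.01, -0.01 and 0.00 over all probes. Probes that passed the filter at a late time only had to differ from 0 h. Among the 20 probes above background on all arrays, 8 rose and 1 fell at 6 h, 4 rose and 4 fell at 24 h, and 5 rose and 7 fell at 72 h. At 0 h and the later time, 21 described probes had at least 1 array above background. Among these, a change of at least 2-fold passed the test for 1 at 6 h, 3 at 24 h and 6 at 72 h, against 0.86%, 3.62% and 6.64% of all probes measured in the same way. The 9 rises at 6 h include both Tnfrsf1a probes and Tnfsf11. Most of the 9 depend on single arrays, as given below for each gene. With no filter on dim probes, 1 member was called at 6 h, and 415 of all 55681 probes.

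**Figure D1:**
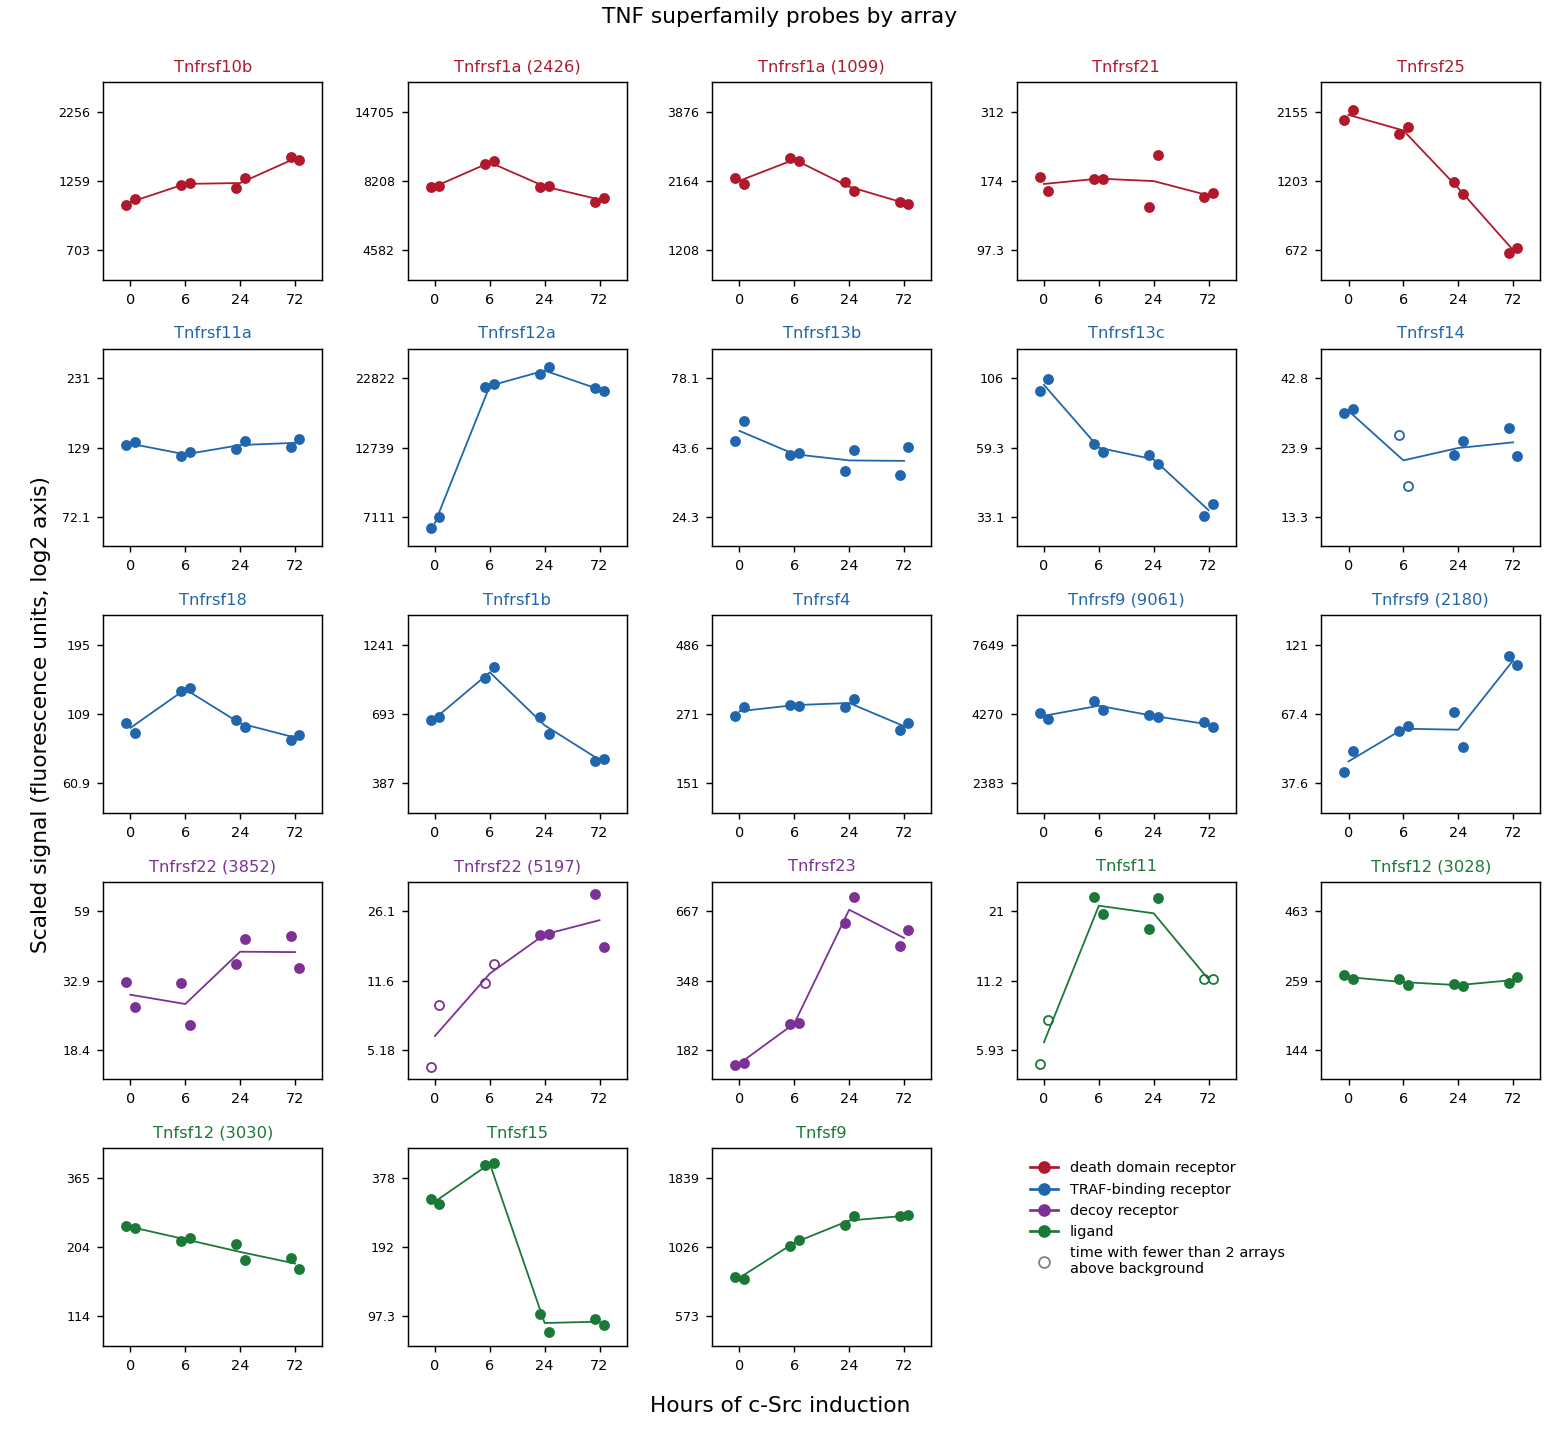
Scaled signal (fluorescence units, log2 axis) of the 23 described probes on each of the 8 arrays against hours of c-Src induction, with a line through the mean log2 signal of each time and open symbols at times with fewer than 2 arrays above background. Axes differ between panels; the numbers in brackets are the last 4 digits of the probe. Tnfrsf12a reads at least 20500 on every later array, against 6440 and 7080 at 0 h, whereas Tnfsf15 reads at most 99.1 at 24 and 72 h.

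**Figure D2:**
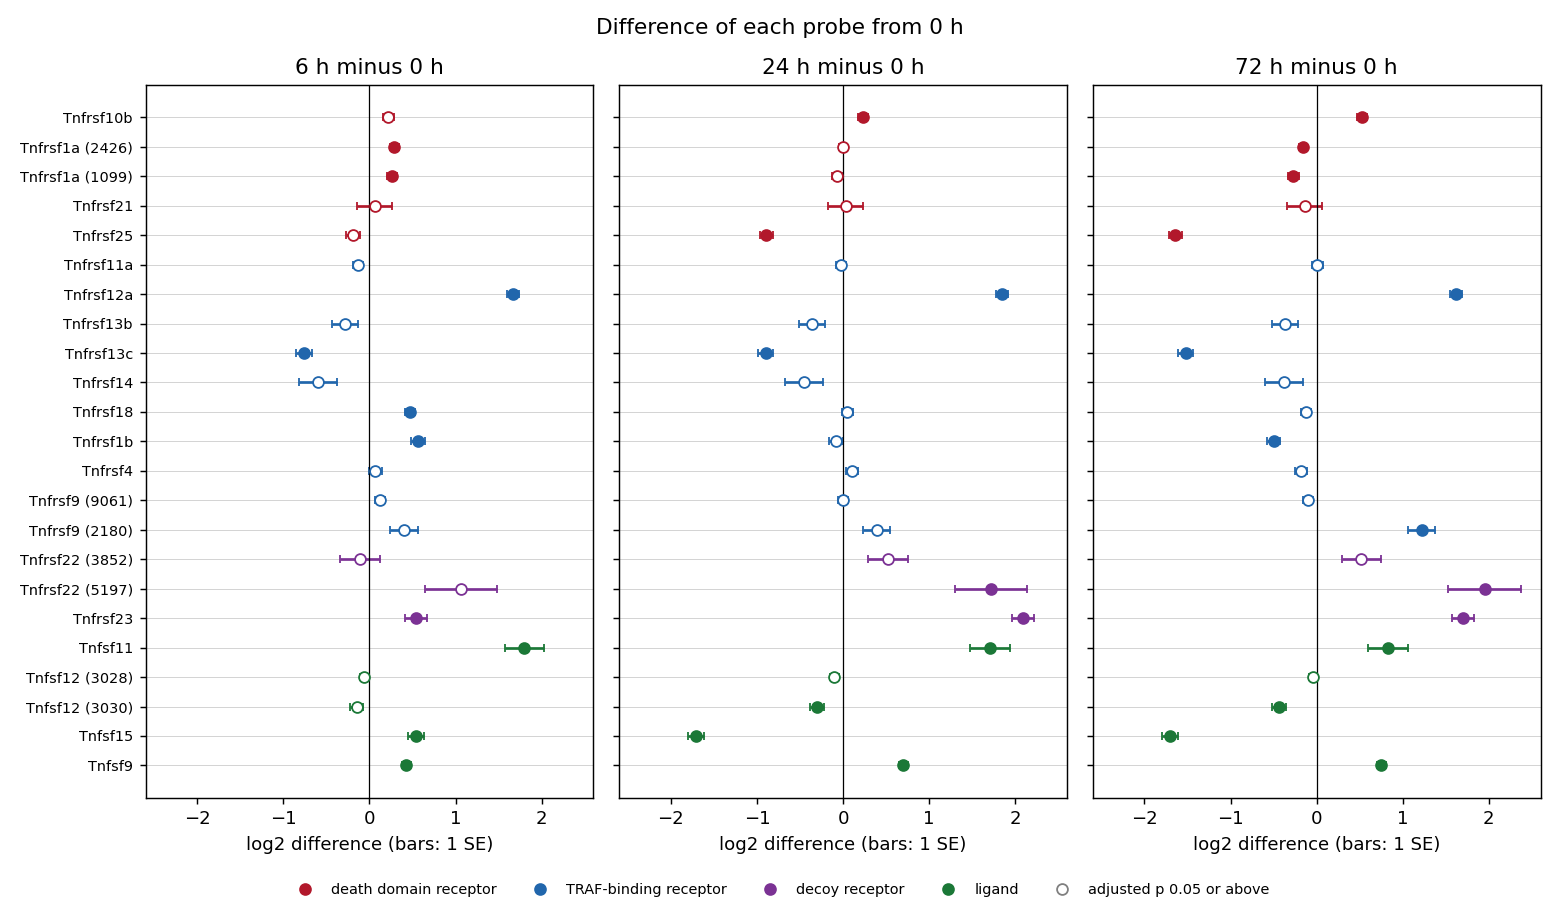
Difference of each described probe from 0 h at 6, 24 and 72 h on the log2 scale with bars of 1 SE, coloured by role, with filled points where the adjusted p was under 0.05. Tnfrsf12a lies between 1.62 and 1.85 at every time, Tnfrsf23 at 2.09 at 24 h, and Tnfsf15 at -1.71 and -1.70 at 24 and 72 h. Tnfsf11 and the Tnfrsf22 probe with the larger difference were not above background at 0 h, so their points are no measured fold.

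Among the death domain receptors, Tnfrsf25 fell late, Tnfrsf1a had a brief rise, Tnfrsf10b rose slightly and Tnfrsf21 did not pass the test at any time. Tnfrsf25 (DR3, the receptor of Tnfsf15) read 2010 and 2200 at 0 h, 1790 and 1900 at 6 h, 1190 and 1080 at 24 h, and 658 and 687 at 72 h. The arrays of each time lay below all arrays of the earlier times. The difference from 0 h was -0.19 ± 0.08 (SE) at 6 h (adjusted p = 0.157), -0.89 ± 0.08 at 24 h (0.539 of the 0 h signal, adjusted p = 0.00077) and -1.64 ± 0.08 at 72 h (0.320 of the 0 h signal, adjusted p = 8.51e-05). It also fell in each later step, by 0.70 at 24 h against 6 h (adjusted p = 0.00385) and by 0.75 at 72 h against 24 h (adjusted p = 0.00534). With no filter on dim probes, which adds the probes at background to the fit and to the adjustment, this last step had an adjusted p of 0.055.

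Tnfrsf1a, the receptor through which TNF signals in most tissues, was read by a pair of described probes. The probe A_52_P192426, the only member probe with 10 spots per array, read 7810 and 7870 at 0 h, 9470 and 9750 at 6 h, 7830 and 7860 at 24 h, and 6910 and 7140 at 72 h. Its 6 h arrays lay above all others and its 72 h arrays below all others, and the spots of an array differed with an SD of 0.037 to 0.09 (log2). It rose by 0.29 ± 0.05 at 6 h (1.23-fold, adjusted p = 0.0139), stood at 0.00 ± 0.05 at 24 h (adjusted p = 0.997) and fell by 0.16 ± 0.05 at 72 h (adjusted p = 0.0304). The second probe, A_55_P2051099, read 2230 and 2110 at 0 h, 2630 and 2560 at 6 h, 2140 and 1990 at 24 h, and 1820 and 1780 at 72 h. Its differences from 0 h were 0.26 (adjusted p = 0.0387), -0.07 (adjusted p = 0.365) and -0.27 (adjusted p = 0.0115). Both probes fell in the step between 6 and 24 h (24 h minus 6 h -0.29, adjusted p = 0.00989, and -0.33, adjusted p = 0.0139). This fall was lost for the first probe without 6 h replicate 2 (adjusted p = 0.062) and for the second without either 6 h array or 24 h replicate 2 (0.0543 to 0.0758). With median scaling it was lost for both (-0.20, adjusted p = 0.135, and -0.23, adjusted p = 0.195). The first probe's rise at 6 h was lost without each 0 h or 6 h array (adjusted p = 0.0591 to 0.0872). The second's was lost without these and also without each 72 h array (0.0782 to 0.155). The first probe's fall at 72 h was lost without each 0 h, 6 h or 72 h array (adjusted p = 0.054 to 0.146). It turned to 0.02 with median scaling (adjusted p = 0.835). The second probe's fall was lost without 0 h replicate 1 or 72 h replicate 2 (0.059 and 0.0633) and with median scaling (-0.09, adjusted p = 0.545).

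Tnfrsf10b, the death receptor for TRAIL in the mouse, read 1030 and 1080 at 0 h, 1220 and 1240 at 6 h, 1190 and 1290 at 24 h, and 1540 and 1510 at 72 h. All arrays after 0 h lay above those of 0 h, and those of 72 h above all others. It rose by 0.23 ± 0.06 at 24 h (1.17-fold, adjusted p = 0.0307) and by 0.53 ± 0.06 at 72 h (1.44-fold, adjusted p = 0.00116), while the 6 h difference of 0.22 had an adjusted p of 0.0685. The rise at 24 h was lost without any array but 24 h replicate 1 (adjusted p = 0.0579 to 0.129), and the rise at 72 h was kept without each array. Tnfrsf21 (DR6) read 181 and 160 at 0 h, 178 and 178 at 6 h, 140 and 217 at 24 h, and 152 and 157 at 72 h. Its 24 h arrays lay on either side of the others, and its differences from 0 h were 0.06, 0.03 and -0.14 with an SE of 0.20 (adjusted p of 0.865, 0.913 and 0.587).

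Among the receptors that bind TRAF adaptors, Tnfrsf12a rose early and stayed high, Tnfrsf13c was below 0 h at every later time, and Tnfrsf1b and Tnfrsf18 rose at 6 h and fell in the next step. Tnfrsf12a (Fn14), the receptor of the ligand TWEAK, was read by the probe A_51_P131408 at chr17:23812746-23812805 on the minus strand (mm9, per the file headers). It read 6440 and 7080 at 0 h, 21200 and 21700 at 6 h, 23600 and 25200 at 24 h, and 21100 and 20500 at 72 h. Every array after 0 h was far above both 0 h arrays, and the times after 0 h lay close to each other. The rise was 1.67 ± 0.07 at 6 h (3.17-fold, adjusted p = 0.000267), 1.85 ± 0.07 at 24 h (3.61-fold, adjusted p = 9.87e-05) and 1.62 ± 0.07 at 72 h (3.08-fold, adjusted p = 7.21e-05). By size this difference ranked 107th from the highest of 28610 probes at 6 h, 161st at 24 h and 265th at 72 h. The steps between the later times did not pass the test (0.19, adjusted p = 0.0989, and -0.23, adjusted p = 0.0635).

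Tnfrsf13c, the BAFF receptor, which is best known from B cells, read 95.6 and 106 at 0 h, 61.4 and 57.2 at 6 h, 55.8 and 51.7 at 24 h, and 33.2 and 36.9 at 72 h. Each time lay below the one before it with no overlap. It fell by 0.76 ± 0.09 at 6 h (adjusted p = 0.0064), by 0.90 ± 0.09 at 24 h (adjusted p = 0.00106) and by 1.52 ± 0.09 at 72 h (0.348 of the 0 h signal, adjusted p = 0.000132), and by 0.62 in the last step (72 h minus 24 h, adjusted p = 0.0103). Its step between 6 and 24 h was -0.14 and missed the threshold (adjusted p = 0.293). With normexp background correction the differences were -0.39, -0.47 and -0.68. The last step was lost without 24 h replicate 1 or 72 h replicate 1 (adjusted p = 0.0528 and 0.0606). A second Tnfrsf13c probe, and the genes Tnfrsf17 (BCMA) and Tnfsf13b (BAFF), were not well above background on both arrays of any time. Tnfrsf13b (TACI), which also binds BAFF, read 46 and 54.8 at 0 h, 41 and 41.5 at 6 h, 35.8 and 42.8 at 24 h, and 34.7 and 43.8 at 72 h on its described probe. Every later array lay below both 0 h arrays, with differences of -0.28, -0.36 and -0.37 that did not pass the test (adjusted p = 0.271, 0.117 and 0.0963).

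Tnfrsf1b (TNFR2), which lacks a death domain and responds best to membrane-bound TNF, read 660 and 675 at 0 h, 943 and 1030 at 6 h, 678 and 586 at 24 h, and 466 and 476 at 72 h. The 6 h arrays were the highest and the 72 h arrays the lowest, with 24 h and 0 h overlapping. It rose by 0.56 ± 0.08 at 6 h (1.48-fold, adjusted p = 0.0129), did not pass the test at 24 h (-0.08, adjusted p = 0.487) and fell by 0.50 ± 0.08 at 72 h (0.705 of the 0 h signal, adjusted p = 0.00463). Its falls in the steps were 0.64 (24 h minus 6 h, adjusted p = 0.00636) and 0.42 (72 h minus 24 h, adjusted p = 0.025). The 6 h rise was lost without 0 h replicate 1, 0 h replicate 2 or 6 h replicate 2 (adjusted p = 0.06 to 0.076), and the last step without 24 h replicate 1 or either 72 h array (0.0746 to 0.115). Median scaling brought the 72 h fall to -0.32 (adjusted p = 0.0619).

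Tnfrsf18 (GITR), a costimulatory receptor of T cells, had the same shape at 6 h: 101 and 93.4 at 0 h, 133 and 136 at 6 h, 104 and 97.9 at 24 h, and 87.5 and 91.6 at 72 h. It rose by 0.47 ± 0.06 at 6 h (1.38-fold, adjusted p = 0.00973) and fell in the next step by 0.42 (24 h minus 6 h, adjusted p = 0.00941). Its differences from 0 h of 0.05 at 24 h and -0.12 at 72 h did not pass (adjusted p = 0.566 and 0.166). With median scaling the fall at 24 h against 6 h was lost (-0.32, adjusted p = 0.101). The 6 h rise was 0.27 with normexp background correction (adjusted p = 0.0229). It missed the threshold in a fit of only the 2 times compared (adjusted p = 0.0516). The 6 h rise was lost without either 6 h array (adjusted p = 0.0509 and 0.0643) and the next step without 6 h replicate 2 (0.0561). Tnfrsf4 (OX40), whose probe lies 12.2 kb from that of Tnfrsf18 on chromosome 4 (mm9), read between 238 and 309 on all arrays, with differences from 0 h of 0.07, 0.10 and -0.18 (adjusted p = 0.511, 0.286 and 0.0689). It passed the test only in the last step (-0.28, adjusted p = 0.0386), which was lost without each of the 6 h, 24 h and 72 h arrays (0.0738 to 0.167). Of 7 T cell markers, Cd3e, Cd4 and Lck were above background on all arrays and Cd3g, Cd3d, Cd2 and Cd8a on none. Their summed signal, carried mostly by Cd4, was 962 to 997 at 0 h, 979 to 1000 at 6 h, 940 to 951 at 24 h and 1050 to 1090 at 72 h. Lck rose 1.31-fold at 24 h against 6 h (adjusted p = 0.0472) and 1.42-fold at 72 h against 0 h (adjusted p = 0.00976), and Cd3e and Cd4 passed no test. Their part in the result was not tested.

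Tnfrsf9 (4-1BB), another costimulatory receptor, was read differently by its probes. The probe A_55_P2029061 read 4310 and 4110 at 0 h, 4760 and 4410 at 6 h, 4250 and 4160 at 24 h, and 4000 and 3830 at 72 h, and passed no test (difference at 72 h -0.10, adjusted p = 0.2). The dimmer probe A_55_P2082180 read 41.3 and 49.5 at 0 h, 58.4 and 60.8 at 6 h, 68.6 and 50.9 at 24 h, and 110 and 102 at 72 h. Its 72 h arrays lay above all others, and it rose by 1.22 ± 0.16 at 72 h (2.33-fold, adjusted p = 0.00183; 0.55 with normexp background correction). In its last step, 72 h minus 24 h, it rose by 0.84 (adjusted p = 0.022), which was lost without either 72 h array (0.0841 and 0.106). The probes therefore disagree on the change of Tnfrsf9 at 72 h. Tnfrsf11a (RANK, the receptor of Tnfsf11) read between 120 and 139 on all arrays. Tnfrsf14 (HVEM) read between 17.3 and 33, with 1 of the 6 h arrays not well above background. Neither passed the test at any time (adjusted p at 6, 24 and 72 h of 0.215, 0.867 and 0.873 for Tnfrsf11a and of 0.128, 0.163 and 0.201 for Tnfrsf14).

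Tnfrsf22 and Tnfrsf23, the decoy receptors described, bind TRAIL and lack a functional death domain. Their probes lie 25 kb apart on chromosome 7 (mm9). Tnfrsf23 read 158 and 161 at 0 h, 231 and 234 at 6 h, 600 and 767 at 24 h, and 483 and 560 at 72 h (probe A_55_P2071132). All later arrays lay above those of 0 h, and those of 24 and 72 h above those of 6 h. The difference was 2.09 ± 0.13 at 24 h (4.25-fold, adjusted p = 0.000338) and 1.70 ± 0.13 at 72 h (3.25-fold, adjusted p = 0.000304). The rise in the step between 6 and 24 h was 1.55 (2.92-fold, adjusted p = 0.00206). With normexp background correction the differences were 1.68 at 24 h, 1.34 at 72 h and 1.3 in that step. At 6 h the rise was 0.54 ± 0.13 (1.45-fold, adjusted p = 0.047). It was lost without each 0 h, 6 h or 72 h array (adjusted p = 0.0676 to 0.171) and with normexp background correction (0.39, adjusted p = 0.0554). A second Tnfrsf23 probe was above background on no array.

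Tnfrsf22 was read by a pair of dim probes. The probe A_52_P323852 read 32.5 and 26.3 at 0 h, 32.2 and 22.7 at 6 h, 37.9 and 46.6 at 24 h, and 47.8 and 36.7 at 72 h, with differences of 0.52 at 24 h and at 72 h that did not pass the test (adjusted p = 0.129 and 0.113). The probe A_55_P2155197 read 4.21 and 8.78 at 0 h, 11.3 and 14.1 at 6 h, 19.9 and 20 at 24 h, and 32.1 and 17.3 at 72 h, and was not well above background on either 0 h array. This probe passed the filter only at 24 and 72 h, so the filter itself favoured a difference from 0 h. Where a probe is not above background at 0 h, its fold is given as at least the ratio of the later mean to the mean limit at 0 h. That limit is, on each 0 h array, the lowest signal well above background or the probe's own signal, whichever is higher. On that basis it rose at least 1.5-fold at 24 h (adjusted p = 0.0243) and at least 1.76-fold at 72 h (adjusted p = 0.0122). With normexp background correction the differences were 0.32 and 0.43 (adjusted p = 0.0195 and 0.00413). With a common floor at a scaled signal of 15, a higher limit, the differences were 0.41 and 0.65. These are smaller than the bounds given, and both calls were lost (adjusted p = 0.267 and 0.0872). The 24 h call was also lost without 0 h replicate 1 or either 24 h array (adjusted p = 0.0806 to 0.0896), and the 72 h call without 72 h replicate 1 (0.0548).

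**Figure D3:**
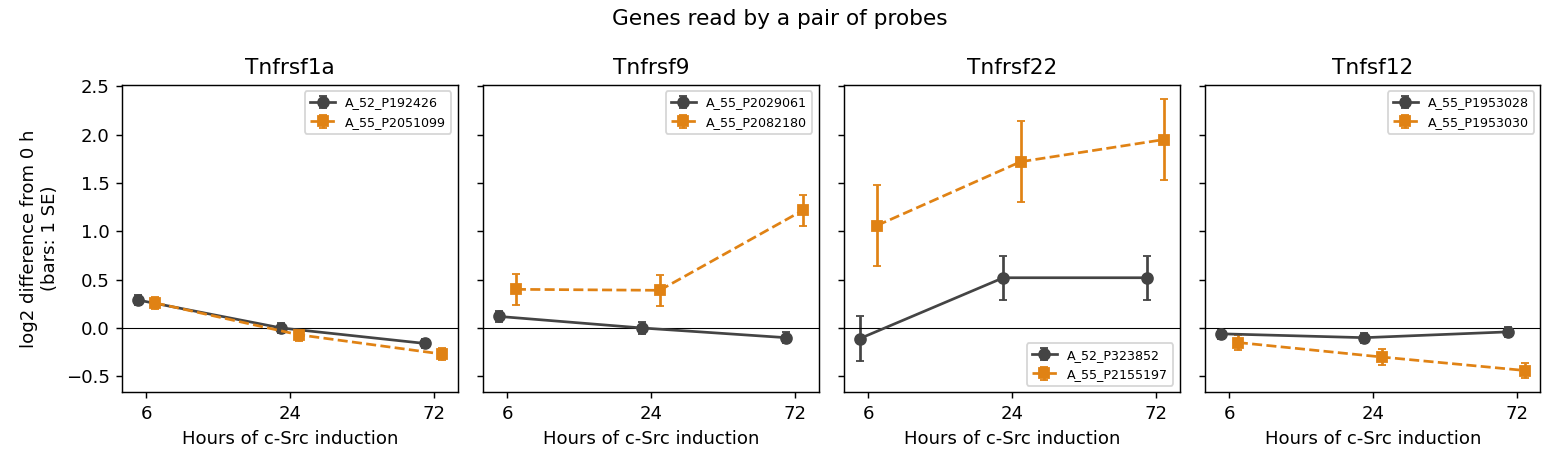
Difference from 0 h (log2, bars of 1 SE) at 6, 24 and 72 h for the 4 genes read by a pair of described probes. The probes of Tnfrsf1a follow each other, whereas those of Tnfrsf9 stand at -0.10 and 1.22 and those of Tnfsf12 at -0.04 and -0.44 at 72 h; the Tnfrsf22 probe with the larger difference was not above background at 0 h.

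Of the 4 ligands described, Tnfsf15 rose and then fell, Tnfsf9 was above 0 h at every later time, and the probes of Tnfsf12 disagreed. Tnfsf11, not above background at 0 h, was higher at 6 and 24 h. Tnfsf15 (TL1A), the ligand of Tnfrsf25, was read by A_55_P2182452 at chr4:63388134-63388193 on the minus strand (mm9). It read 307 and 292 at 0 h, 430 and 439 at 6 h, 99.1 and 83.7 at 24 h, and 94.9 and 89.7 at 72 h. The 6 h arrays were the highest, and those of 24 and 72 h lay together far below the rest. It rose by 0.54 ± 0.09 at 6 h (1.45-fold, adjusted p = 0.0174) and fell by 1.71 ± 0.09 at 24 h (0.305 of the 0 h signal, adjusted p = 0.000241) and by 1.70 ± 0.09 at 72 h (0.309 of the 0 h signal, adjusted p = 0.000111). Against 6 h, the 24 h signal fell by 2.25 (0.21 of the 6 h signal, adjusted p = 0.000501), which ranked 45th from the lowest of 28610 probes. With normexp background correction the differences from 0 h were 0.45 at 6 h, -1.27 at 24 h and -1.23 at 72 h. The 24 h against 6 h difference was then -1.72. The 6 h rise was lost without each 0 h or 6 h array (adjusted p = 0.0631 to 0.0923) and with median scaling (0.59, adjusted p = 0.0504).

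Tnfsf9 (4-1BB ligand), which costimulates T cells through Tnfrsf9, read 799 and 786 at 0 h, 1040 and 1090 at 6 h, 1240 and 1330 at 24 h, and 1330 and 1340 at 72 h. Every later array lay above both 0 h arrays. It rose by 0.43 ± 0.05 at 6 h (1.34-fold, adjusted p = 0.00846), by 0.70 ± 0.05 at 24 h (1.62-fold, adjusted p = 0.000593) and by 0.75 ± 0.05 at 72 h (1.68-fold, adjusted p = 0.000263), and by 0.27 in the step between 6 and 24 h (adjusted p = 0.0211). Its last step was 0.05 and missed the threshold (adjusted p = 0.532). The 6 h rise was lost without 0 h replicate 2 or 6 h replicate 2 (adjusted p = 0.0504 and 0.058) and the step without either 6 h array or 24 h replicate 2 (0.0628 to 0.108).

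Tnfsf11 (RANKL), which drives osteoclast formation through Tnfrsf11a, read 5.2 and 7.76 at 0 h, 24 and 20.5 at 6 h, 17.9 and 23.9 at 24 h, and 11.3 and 11.3 at 72 h. It was well above background on neither array at 0 h, both at 6 and 24 h, and 1 at 72 h. Tnfsf11 thus passed the filter only at 6 and 24 h, so the filter itself favoured a difference from 0 h. By the limit used for Tnfrsf22, the rise was at least 1.66-fold at 6 h (adjusted p = 0.00806) and at least 1.55-fold at 24 h (adjusted p = 0.00295). With normexp background correction the differences were 0.38 at 6 h and 0.33 at 24 h (adjusted p = 0.0165 and 0.0118). At 72 h it also passed the test (adjusted p = 0.0265). No fold is given there, since the signal was near the background limit. The call was lost without 0 h replicate 1 or either 72 h array (adjusted p = 0.0899 to 0.0944) and with normexp background correction (0.144). With the common floor the 6 h difference was 0.56, smaller than the 1.66-fold bound, and the 6 h call was lost (adjusted p = 0.0505). The signal was lower at 72 h than at 24 h (adjusted p = 0.0482), which was lost without each of the 6 h, 24 h and 72 h arrays (0.0771 to 0.163).

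Tnfsf12 (TWEAK), the ligand of Tnfrsf12a, was read by a probe that passed no test and by another that fell. A_55_P1953028 read between 247 and 271 on all arrays, with a difference of -0.04 at 72 h (adjusted p = 0.613). A_55_P1953030 read 244 and 239 at 0 h, 215 and 220 at 6 h, 209 and 183 at 24 h, and 185 and 170 at 72 h, with all later arrays below 0 h. It fell by 0.30 ± 0.08 at 24 h (0.811 of the 0 h signal, adjusted p = 0.0295) and by 0.44 ± 0.08 at 72 h (0.736 of the 0 h signal, adjusted p = 0.00604). The 24 h fall was lost without each 0 h or 6 h array or 24 h replicate 2 (adjusted p = 0.0539 to 0.11), and with median scaling both falls were (adjusted p = 0.374 and 0.131).

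Known ligand and receptor pairs could be set side by side for 4 described ligands. Tnfsf15 and Tnfrsf25 both fell at 24 and 72 h, a pairing chosen after the values were seen, and at 6 h Tnfsf15 rose while Tnfrsf25 did not pass the test. For Tnfsf12 and Tnfrsf12a, the receptor rose at every time, whereas the ligand fell on the only probe that changed. For Tnfsf9 and Tnfrsf9, the ligand rose at every time and the receptor's probes disagreed at 72 h. For Tnfsf11 and Tnfrsf11a, the ligand was higher at 6 and 24 h than at 0 h, where it was not above background. Its 6 h call was lost with the common floor, and the receptor did not pass the test.

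The 17 member probes not described were above background on 0 to 3 of the 8 arrays, 13 of them on none, against 5 to 8 arrays for those described. Just outside was the Tnfrsf13b probe A_55_P2169559, above background on 3 arrays (signals of 8.84 to 15.2), and just inside were Tnfsf11 and the Tnfrsf22 probe A_55_P2155197, each above background on 5. The 11 genes with no described probe were the ligands Tnfsf4, Tnfsf8, Tnfsf10, Tnfsf13b, Tnfsf14 and Tnfsf18 and the receptors Tnfrsf8, Tnfrsf11b, Tnfrsf17, Tnfrsf19 and Tnfrsf26. By their mm9 probe positions, 9 of the 30 genes lie on chromosome 4. Several neighbours of described genes were not detected: Tnfrsf26, 29.3 kb from Tnfrsf22, was above background on no array, and likewise Tnfsf8, 106 kb from Tnfsf15, Tnfrsf8, 80.2 kb from Tnfrsf1b, and Tnfsf14, 82.1 kb from Tnfsf9.

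Superfamily genes that carry other symbols were mostly not detected. Of 15 such genes, 4 were tested (Fas, Ltb, Ltbr and Relt), and Tnf, Lta, Fasl, Cd70, Eda, Cd40, Edar and Eda2r were above background on no array. At 6 h Fas, a death receptor, rose 1.96-fold (0.97 ± 0.06, adjusted p = 0.000985) and Ltb, a lymphotoxin subunit, fell by 0.47 (adjusted p = 0.0456). At 24 h Relt rose by 0.59 (adjusted p = 0.0097) and Ltbr by 0.18 (adjusted p = 0.0425), while Ltb fell by 1.02 (adjusted p = 0.00156) and Fas by 0.19 (adjusted p = 0.0469). At 72 h Relt (0.54, adjusted p = 0.00998), Ltbr (0.21, adjusted p = 0.0219) and Fas (0.18, adjusted p = 0.0455) rose and Ltb fell by 0.54 (adjusted p = 0.00982). With median scaling the median of all probes stood at 0.14 at 24 h and 0.18 at 72 h. The differences of Fas and Ltbr at these times are near that size. How their calls depend on scaling or on single arrays is not reported here.

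Of 29 adaptors, kinases and effectors that act close to these receptors, 28 were tested, each on its brightest probe that passed the filter. Some have further probes on the array, which were not used. Rnf31, Map3k14 and Cyld, named below, have 2 probes each. At 6 h, 6 rose and 2 fell (median 0.05), at 24 h 10 rose and 2 fell (median 0.17), and at 72 h 14 rose and 2 fell (median 0.21), against medians over all probes of 0.01, -0.01 and 0.00 and the shares called given above. Bid, which links death receptors to mitochondria, read 571 and 530 at 0 h, 866 and 896 at 6 h, 1030 and 963 at 24 h, and 969 and 957 at 72 h. It rose 1.6-fold at 6 h (adjusted p = 0.00343), 1.81-fold at 24 h (0.000466) and 1.75-fold at 72 h (0.000289). Traf5, an adaptor of several TRAF-binding receptors, rose 1.96-fold at 6 h (adjusted p = 0.00125), 1.80-fold at 24 h (0.000519) and 1.45-fold at 72 h (0.00126). Mlkl, the executor of necroptosis, rose 1.24-fold at 6 h (adjusted p = 0.0238), 1.72-fold at 24 h (0.000534) and 1.69-fold at 72 h (0.000319). Chuk (IKKα) rose 1.36-fold at 24 h (adjusted p = 0.00702) and 1.58-fold at 72 h (0.0012). Rnf31 (HOIP) rose 1.57-fold at 72 h (0.00287). Map3k14 (NIK) rose 1.44-fold at 6 h (adjusted p = 0.00741) and Cyld, a deubiquitinase that restrains NF-κB signalling, fell by 0.36 (0.0144). Neither passed the test at 24 or 72 h against 0 h. The 2 that fell at 72 h were the death domain adaptors Fadd (-0.56, adjusted p = 0.00695) and Tradd (-0.57, 0.000424), named after their values were seen.

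**Figure D4:**
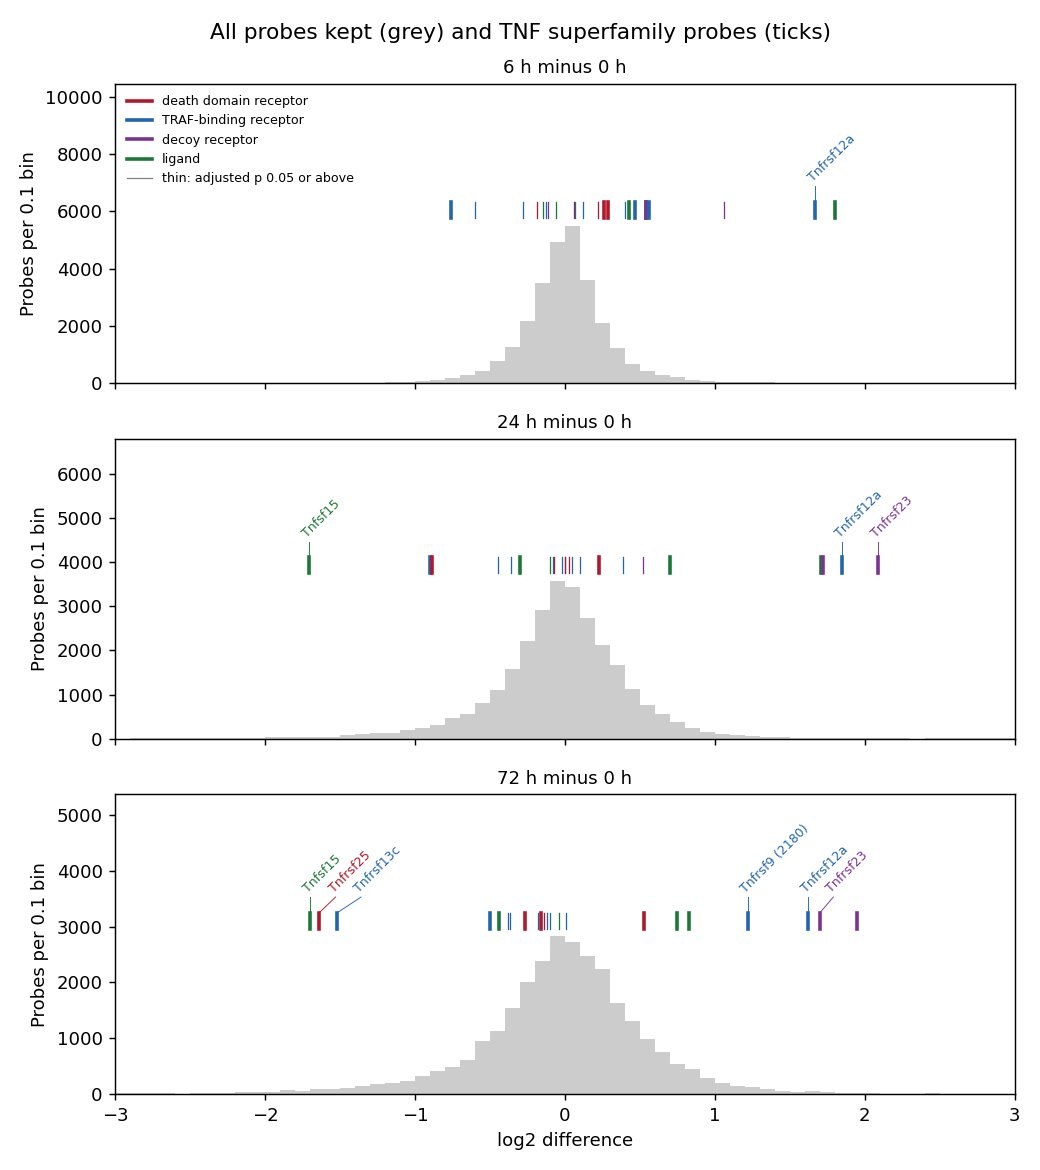
Number of probes per 0.1 bin of log2 difference from 0 h at 6, 24 and 72 h for the 28610 probes tested (grey), with a tick for each described member, thick where the adjusted p was under 0.05. Members measured at both times that passed the test with at least a 2-fold difference are named, and probes beyond 3 in either direction are not drawn. At 24 h Tnfsf15 stands at -1.71, 259th from the lowest, and Tnfrsf23 at 2.09, 131st from the highest of 28610 probes.

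Between the later times, 2 described probes rose and 6 fell at 24 h against 6 h, where 22.7% of all probes passed the test (10.9% higher and 11.8% lower). Then 2 rose and 5 fell at 72 h against 24 h, where 19.3% did (9.44% higher and 9.89% lower). The 24 h falls were those of Tnfsf15, Tnfrsf25, Tnfrsf1b, Tnfrsf18 and both Tnfrsf1a probes, and the rises those of Tnfrsf23 and Tnfsf9. The 72 h falls were those of Tnfrsf25, Tnfrsf13c, Tnfrsf1b, Tnfrsf4 and Tnfsf11, and the rises those of Tnfrsf10b (0.30, adjusted p = 0.0258) and the dim Tnfrsf9 probe. The median difference of the described probes was -0.04 and -0.14 in these steps, against -0.01 and 0.01 over all probes. The Tnfrsf10b rise at 72 h against 24 h was lost without each 6 h or 72 h array or 24 h replicate 1 (adjusted p = 0.0547 to 0.123).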

How the data were processed

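Total RNA of the 8 samples was hybridised to 1-colour Agilent arrays; each array held 59305 spots that are not controls. The values used are the processed signals, a linear intensity per spot that the authors deposited. They were made with Feature Extraction 10.5.1.1 per the file headers, or 10.7.3.1 per the submitters' processing notes. The value table differed from them by at most 0.497%. The 75th percentile was 370.3 to 393 per array, and 49.9% to 54.7% of spots were well above background. No spot was saturated, and the number of arrays limits the precision. Spots flagged as outliers (146 to 208 per array) were left out, log2 signals were centred on the 75th percentile of the array and the spots of a probe were averaged. Probes well above background on both arrays of a time were kept (28610 of 55681), and a probe counted as above background on an array if at least 0.5 of its spots were. limma 3.58.1 in R 4.3.3 (lmFit, eBayes; 4 residual degrees of freedom, prior 1.69) compared the 4 time means in 5 comparisons, with Benjamini-Hochberg adjustment over all probes kept. The method was tested on simulated data. All described members are named, and of the other 2 gene lists (superfamily genes under other symbols, and receptor-proximal signalling), up to 4 called probes with the largest difference at each time against 0 h; Src and Csk check the labels. Fadd and Tradd were named after their values were seen. Each gene of these lists and of the cell type markers was read on 1 probe. It was the brightest probe kept, or the brightest on the array where none was kept. Members and lists were chosen with earlier results of these data known. The result of the B cell marker list is not reported here. Alternatives were normexp background correction, median scaling, quantile normalization, a common floor, other filters, 1 probe per gene, outlier spots kept, a trend in eBayes, the 2 times compared alone, a replicate block, the deposited value table and each array left out. Figures used Python 3.11.15, pandas 2.3.3 and matplotlib 3.10.9.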

Additional observations from a re-analysis of the deposited data

How the results depend on the processing

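The rises of Tnfrsf12a at every time against 0 h, those of Tnfrsf23 at 24 and 72 h, and the falls of Tnfsf15, Tnfrsf25 and Tnfrsf13c at 24 and 72 h kept their direction and passed the test under every alternative run. The count of described probes called at 6 h was 3 to 10 with 1 array left out, at 24 h 7 to 10 and at 72 h 11 to 14; it was 4 to 8 at 24 h against 6 h and 1 to 7 at 72 h against 24 h. Over all probes these ranges were 1146 to 4089, 8044 to 9993, 10546 to 14384, 2650 to 5458 and 1146 to 4497. With no filter on dim probes, the fit and the adjustment both ran over 55681 probes. Then 1 member was called at 6 h, 3 at 24 h against 6 h and 0 at 72 h against 24 h. In that last step 11 had an unadjusted limma p under 0.05. All probes called came to 415 at 6 h, 5497 at 24 h and 9068 at 72 h. They came to 1234 at 24 h against 6 h and 327 at 72 h against 24 h. In fits of only the 2 times compared, members called came to 5 at 24 h against 6 h and 1 at 72 h against 24 h, and all probes called to 1533 at 6 h, 2571 and 656. Median scaling shifted the median of all probes to 0.06 at 6 h, 0.14 at 24 h and 0.18 at 72 h, gave higher calls a share of 69% at 24 h against 6 h and 60.6% at 72 h against 24 h (47.9% and 48.8% with 75th percentile scaling), and gave 2631 calls at 6 h and 3076 at 72 h against 24 h over all probes. The Tnfrsf1a probe A_52_P192426 then stood at 0.02 at 72 h. Deviations from the time means of same-numbered arrays correlated weakly, at 0.06 to 0.14, and always positively. What these arrays share was not tested. With a replicate block, 9 described probes rose and 1 fell at 6 h, 6 and 5 at 24 h, and 7 and 9 at 72 h. In the later steps, 2 rose and 6 fell at 24 h against 6 h, and 2 and 5 at 72 h against 24 h. Over all probes, calls with the block came to 4551 at 6 h and 14906 at 72 h, against 4226 and 14291 without it. Tnfrsf13b passed the test at 24 and 72 h (adjusted p = 0.0322 and 0.0248) and Tnfrsf4 at 72 h (0.0404) with that block. The cause of these shifts was not tested.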

Other observations

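Markers of other cell types moved with time. Csf1r read 373 and 402 at 0 h, 691 and 739 at 6 h, 705 and 654 at 24 h, and 499 and 549 at 72 h, and Cd68, also a macrophage marker, 6.08 and 5.09 at 0 h, 14.5 and 13.2 at 6 h, 16.1 and 22.5 at 24 h, and 37.8 and 40.3 at 72 h. Cd68, not well above background at 0 h, rose at least 1.04-, 1.43- and 2.92-fold (limma adjusted p = 0.00935, 0.00113 and 0.000167). Itgam was above background on all arrays and passed no test, and Adgre1 (also listed as Emr1), Ptprc and Tyrobp were above background on no array. The summed signal of the epithelial markers (Epcam and Cdh1 above background on no array) was 1780 to 1840 at 72 h, against 978 to 1100 at 0 h. That of the osteoblast markers, carried mostly by Alpl, was 140 to 143 at 72 h, against 505 to 528 at 0 h. Alpl and the dimmer Sp7 passed the test as lower at 72 h than at 0 h. Ibsp was above background on no array, and Bglap did not pass the filter, so the sum does not show a fall of every osteoblast marker. Of the endothelial markers, Tek read 40.7 and 24.5 at 0 h, 23.1 and 17.7 at 6 h, 11.3 and 4.94 at 24 h, and 2.03 and 2.89 at 72 h. It was at least 2.43-fold lower at 24 h and at least 2.71-fold lower at 72 h than at 0 h (limma adjusted p = 0.0168 and 0.00154), while Pecam1 and Kdr passed no test and Cdh5 was above background on no array. The part of these markers in the changes of TNF superfamily members was not tested. Cd40lg, the CD40 ligand, read 2.7 and 87.4 on the 6 h arrays and at most 7.83 on every other array.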
